A study of Homo sapiens with 6 samples.

Results

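The m6A readers and erasers described here are 10 genes taken by name: the YTH-domain readers YTHDF1, YTHDF2, YTHDF3, YTHDC1 and YTHDC2, the KH-domain readers IGF2BP1, IGF2BP2 and IGF2BP3, and the demethylases FTO and ALKBH5. All 10 were found among the 18249 genes of the deposited expression table, and all 10 were among the 12375 genes tested, those that reached 1 in some library. Of the 15940 deposited m6A peaks, 16 were annotated to these genes. Expression came from TE-10, a human esophageal squamous carcinoma line, in 3 polyadenylated RNA libraries: 2 of cells stably carrying a short hairpin RNA against METTL3, and 1 of cells with normal METTL3. The sample titles number the hairpins 1 and 2, and the libraries are called knockdown 1 and knockdown 2. The peaks came from methylated RNA immunoprecipitation of TE-10 cells with normal METTL3, with 2 immunoprecipitated libraries, made with m6A antibodies of different catalogue numbers, and 1 input library. The sources used here do not describe the sequence inserted in the control, and nothing in them says whether libraries came from separate cultures or clones, so p-values measure only the spread between these samples.

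N6-methyladenosine (m6A) is placed on mRNA by a complex whose catalytic subunit is METTL3, and its effect depends on proteins that bind it. In the nucleus YTHDC1 takes part in splicing and export of marked RNA. In the cytoplasm the YTHDF proteins and the helicase YTHDC2 act on translation and decay, while the IGF2BP proteins stabilise bound mRNA. FTO and ALKBH5 are iron- and oxoglutarate-dependent dioxygenases that remove the mark. The comparison of knockdown with control asks whether these genes differ when the enzyme that writes their mark is lowered, and the peak list shows which of their own transcripts carry enriched regions.

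METTL3 itself was at 8.35 in knockdown 1 and 4.99 in knockdown 2, against 20.81 in the control, so its values followed the labels. Values are the deposited expression values, whose unit and scaling by gene length the sources used here do not state, so levels are compared within a gene and not between genes. The squamous markers KRT5, KRT14, KRT17, KRT6A, TP63, SOX2, DSG3 and PERP were all present, with a summed value of 3469.21 in knockdown 1, 2204.27 in knockdown 2 and 3573.01 in the control. Such a sum is weighted toward genes with high values, here the keratins. All of these markers but PERP were lowest in knockdown 2. PERP was at 173.84 in knockdown 1, 210.56 in knockdown 2 and 220.62 in the control. The hematopoietic and endothelial markers were below 1 in every library, and of the mesenchymal ones only COL1A1 was above it, at 3.34 to 3.6. Knockdown 2 stood apart: 29 genes were at 5 or more there and under 0.5 in both other libraries, while 0 genes were so in knockdown 1 or in the control. Among them was CDKN2A, an inhibitor of CDK4 and CDK6, at 0 in knockdown 1, 144.68 in knockdown 2 and 0.04 in the control. So were HOXB9 and IRS4, named with CDKN2A as differences known from earlier results. HOXB9 was at 0.35 in knockdown 1, 53.12 in knockdown 2 and 0.03 in the control. IRS4 was at 0.04 in knockdown 1, 23.56 in knockdown 2 and 0.05 in the control. VIM, also known earlier, was at 88.05 in knockdown 1, 311.17 in knockdown 2 and 87.02 in the control. The 6 embryonic kidney or HeLa-type markers summed to 11.17 in knockdown 1, 166.17 in knockdown 2 and 10.56 in the control. CDKN2A gave most of the sum in knockdown 2. The other 5 markers summed to 11.17 in knockdown 1, 21.49 in knockdown 2 and 10.52 in the control. HOXD13 was at 7.64 in knockdown 1, 16.07 in knockdown 2 and 6.38 in the control. PAX2, WT1 and LHX1 were below 1 in every library and highest in knockdown 2. PAX8 was not, at 3.51 in knockdown 1, 3.66 in knockdown 2 and 4.11 in the control. The 6 were all above 0 in knockdown 2, at 0.29 or more, while PAX2, LHX1 and CDKN2A were at 0 in knockdown 1. The part of these differences in any value of knockdown 2 below was not tested.

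No reader or eraser passed the test of knockdown against control, made with limma on log2(value + 1) at a Benjamini-Hochberg adjusted p of 0.05, and neither did any of the 12375 genes (0%). At an unadjusted p under 0.05, limma took 0 of the 10 genes, against 162 of all genes (1.31%). Only the knockdown libraries, which carry different hairpins, inform the spread in this test (1 residual degree of freedom). In limma the spread of each gene is drawn toward a trend fitted over all genes. An SE given here is therefore not the spread of that gene alone, and a p that misses the threshold does not show that a gene was equal. Of the 10 genes, 4 were above the control in both knockdown libraries, where 28% of all genes were, and 1 was below it in both, where 30.4% were. The 4 were YTHDF2, YTHDF3, YTHDC2 and IGF2BP1, of which YTHDF3, YTHDC2 and IGF2BP1 were above it under the 3 other scalings too, while YTHDF2 turned sign in knockdown 1 with equal column sums (-0.0033). The 1 below was IGF2BP2, which turned sign in knockdown 1 with median-of-ratios scaling (0.017). The median log2 difference of the 10 was 0.13 in knockdown 1, 0.04 in knockdown 2 and 0.08 in their mean. Over all genes tested it was -0.014 in knockdown 1 and 0.00 in knockdown 2. With 1 library per hairpin and a shared control, these counts are a description. In bulk RNA, fewer cells with a transcript and less of it per cell cannot be told apart.

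**Figure D1:**
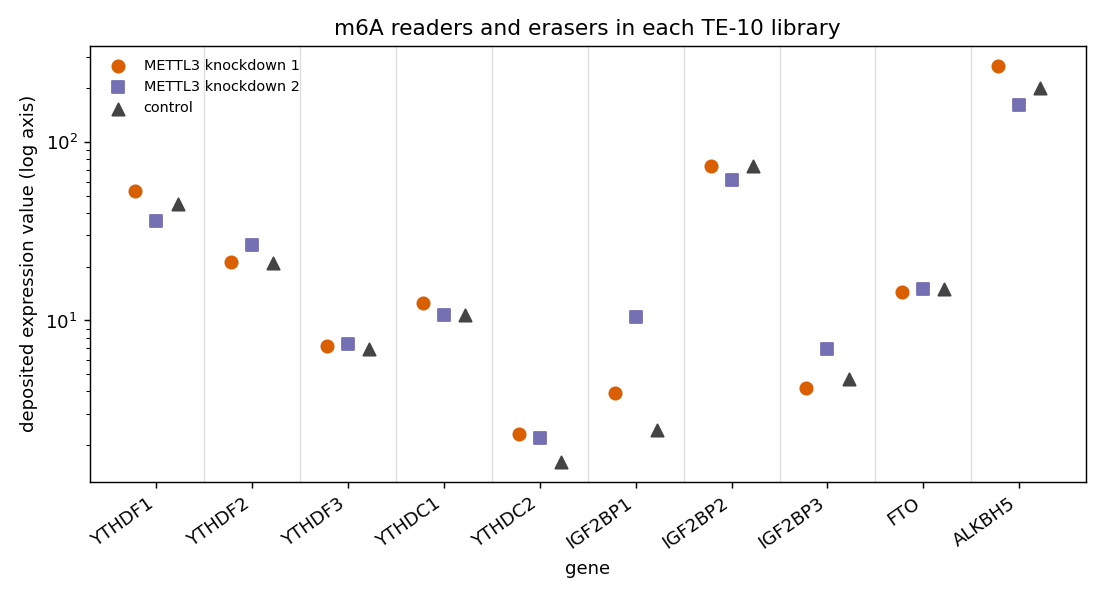
Deposited expression value (log axis, unit not stated) of each reader and eraser in knockdown 1, knockdown 2 and the control, 1 point per library. IGF2BP1 at 10.42 in knockdown 2 lies farthest, as a ratio, from its control value of 2.43.

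The cytoplasmic YTHDF readers lay on different sides of the control in knockdown 2, and none of their differences passed the test. YTHDF1, known for promoting translation of marked mRNA, was at 53.31 in knockdown 1 and 36.01 in knockdown 2, against 45.19 in the control. The control lay between both knockdown libraries, with log2 differences of 0.23 in knockdown 1 and -0.32 in knockdown 2 and a mean of -0.04 (SE 0.31, limma adjusted p = 1). YTHDF2, which brings marked mRNA to the CCR4-NOT deadenylase for decay, was at 21.36 in knockdown 1 and 26.66 in knockdown 2, against 21.08 in the control. Knockdown 1 was next to the control, 0.02 above it on the log2 scale, and knockdown 2 was 0.33 above it. YTHDF3, which acts with the other two, was at 7.24 in knockdown 1 and 7.34 in knockdown 2, against 6.95 in the control, the narrowest relative range of the 3. The ratio of YTHDF1 to YTHDF2 does not depend on the scaling of a library. Relative to the control it was 1.16-fold in knockdown 1 and 0.63-fold in knockdown 2.

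The YTHDC readers were highest in knockdown 1. YTHDC1, the nuclear reader, was at 12.52 in knockdown 1 and 10.68 in knockdown 2, against 10.68 in the control. Knockdown 2 equalled the control to the 2 decimals deposited, and lay below it under the 3 other scalings (-0.027 with median-of-ratios scaling, -0.040 with equal column sums and -0.00043 with quantile normalization). Knockdown 1 was 0.21 higher on the log2 scale. YTHDC2, a helicase best known from mouse germ cells, where meiosis needs it, was at 2.32 in knockdown 1 and 2.2 in knockdown 2, against 1.61 in the control. Both knockdown libraries lay above the control, by 0.35 in knockdown 1 and 0.29 in knockdown 2 on the log2 scale, with a mean of 0.32 (SE 0.35, limma adjusted p = 1). Differences of this size or larger, in either direction, were seen for 16.7% of all genes in knockdown 1 and 38.9% in knockdown 2.

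The IGF2BP readers held the largest difference of the 10 genes. IGF2BP1, an oncofetal mRNA-binding protein, was at 3.94 in knockdown 1 and 10.42 in knockdown 2, against 2.43 in the control. Both knockdown libraries were above the control, by 0.53 in knockdown 1 and 1.74 in knockdown 2 on the log2 scale, with a mean of 1.13 (SE 0.50, limma unadjusted p = 0.0657, adjusted p = 1). A log2 difference of at least this size was seen for 5.80% of all genes in knockdown 1 and 1.24% in knockdown 2, where CDKN2A stood at 144.68. On this scale IGF2BP1 alone among the 10 differed 2-fold or more from the control in knockdown 2, where 4.62% of all genes did, and none did in knockdown 1, where 0.646% did. It was also alone among the 10 in differing 2-fold or more between the knockdown libraries, as 5.2% of all genes did.

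The values of its paralogs lay closer to their controls, a contrast that was not tested. IGF2BP2, a reader common in epithelial cancers, was at 73.39 in knockdown 1 and 61.65 in knockdown 2, against 73.77 in the control, and was the 1 gene of the 10 below the control in both. Its log2 difference was -0.0074 in knockdown 1 and -0.26 in knockdown 2, with a mean of -0.13 (SE 0.26, limma adjusted p = 1). IGF2BP3, also oncofetal, was at 4.18 in knockdown 1 and 6.88 in knockdown 2, against 4.71 in the control. It was below the control in knockdown 1 and 0.46 above it in knockdown 2 on the log2 scale, an order of signs found in 21.5% of all genes and in FTO, whose value in knockdown 2 turned sign with median-of-ratios scaling (-0.018) and equal column sums (-0.031). The ratio of IGF2BP1 to IGF2BP2, relative to the control, was 1.63-fold in knockdown 1 and 5.13-fold in knockdown 2. That of IGF2BP3 to IGF2BP2 was 0.89-fold in knockdown 1 and 1.75-fold in knockdown 2.

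Of 7661 other genes at 5 or more in every library, the 3 whose centred log2 values lay nearest to those of IGF2BP1 over the 3 libraries were FHL1 (Euclidean distance 0.0912), YBEY (0.112) and CBS (0.116). FHL1, a LIM-domain protein, was at 14.64 in knockdown 1 and 38.52 in knockdown 2, against 10.27 in the control. YBEY, a mitochondrial RNA-processing factor, was at 9.6 in knockdown 1 and 21.96 in knockdown 2, against 6.69 in the control. CBS, the cystathionine beta-synthase of cysteine synthesis, was at 12.54 in knockdown 1 and 33.98 in knockdown 2, against 9.13 in the control, and has a near-identical copy, CBSL, that makes its value uncertain. With 3 libraries, nearness describes these values only.

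Neither eraser passed the test, and their values spread differently over the libraries. FTO, which also acts on m6Am next to the cap, was at 14.36 in knockdown 1 and 15.05 in knockdown 2, against 14.94 in the control. All 3 libraries were close, with a mean log2 difference of -0.02 (SE 0.23, limma adjusted p = 1), whose sign turned with quantile normalization (0.01). ALKBH5, a nuclear demethylase, was at 267.78 in knockdown 1 and 162.3 in knockdown 2, against 200.69 in the control. The control lay between the knockdown libraries, of which knockdown 1 was 0.41 above and knockdown 2 was 0.30 below it on the log2 scale, and the mean was 0.05 (SE 0.36, limma adjusted p = 1). A difference of this size between the knockdown libraries, in either direction, was seen for 10.1% of all genes. The ratio of ALKBH5 to FTO, relative to the control, was 1.39-fold in knockdown 1 and 0.80-fold in knockdown 2. ALKBH5 and YTHDF1 were the members above the control in knockdown 1 and below it in knockdown 2, as 19.1% of all genes were, and YTHDC1 joined them under the 3 other scalings.

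**Figure D2:**
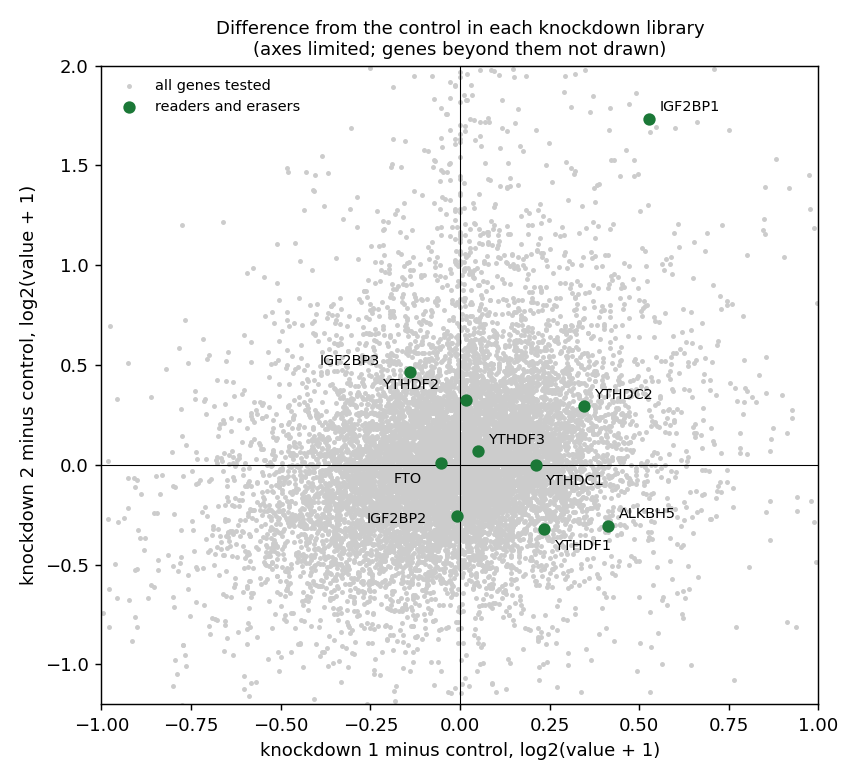
Difference from the shared control on the log2(value + 1) scale in knockdown 1 (x axis) and knockdown 2 (y axis), with the readers and erasers as green points and all tested genes within the axis limits in grey. IGF2BP1 is the only named point above 1 on the y axis, and YTHDF1 and ALKBH5 lie in the lower right.

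The promoters of these genes are given for YTHDF1 and ALKBH5, which were above the control in knockdown 1 and below it in knockdown 2, and for the YTHDC readers, YTHDC1 and YTHDC2. Sequences are from RefSeq (GRCh38.p14), 5′ to 3′ on the gene's strand, the 250 bases before the annotated start. Of the 10 genes, 8 had a usable entry, with 10 starts in all. Capitals mark matches, on either strand, to the GC box GGGCGG, the cAMP response element TGACGTCA, the E-box CACGTG and the CCAAT box.
YTHDF1 (chr20:63216132-63216381, - strand): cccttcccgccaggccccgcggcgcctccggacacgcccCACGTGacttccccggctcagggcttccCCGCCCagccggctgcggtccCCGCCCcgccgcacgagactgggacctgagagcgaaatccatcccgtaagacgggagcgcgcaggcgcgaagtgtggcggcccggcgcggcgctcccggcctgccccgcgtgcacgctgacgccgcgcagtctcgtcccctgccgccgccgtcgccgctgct
ALKBH5 (chr17:18183578-18183827, + strand): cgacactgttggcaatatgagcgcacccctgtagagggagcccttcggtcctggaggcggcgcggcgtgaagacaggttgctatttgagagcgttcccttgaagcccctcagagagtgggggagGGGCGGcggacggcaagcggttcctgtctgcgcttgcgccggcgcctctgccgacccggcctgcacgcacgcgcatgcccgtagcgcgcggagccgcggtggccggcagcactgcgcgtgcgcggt
YTHDC1 (chr4:68350091-68350340, - strand): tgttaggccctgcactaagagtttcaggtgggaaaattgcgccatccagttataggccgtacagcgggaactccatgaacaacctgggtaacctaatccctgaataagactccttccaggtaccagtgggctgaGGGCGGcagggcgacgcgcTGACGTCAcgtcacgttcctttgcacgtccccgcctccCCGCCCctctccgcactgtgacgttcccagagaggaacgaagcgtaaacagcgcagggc
YTHDC2 (chr5:113513444-113513693, + strand): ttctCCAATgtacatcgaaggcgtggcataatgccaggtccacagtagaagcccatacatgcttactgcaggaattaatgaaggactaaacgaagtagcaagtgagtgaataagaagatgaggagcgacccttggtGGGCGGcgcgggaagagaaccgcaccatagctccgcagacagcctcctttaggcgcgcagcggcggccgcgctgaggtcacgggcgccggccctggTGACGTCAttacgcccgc

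The YTHDF1 window was 77.6% G and C and that of ALKBH5 70%, beside a median of 58% over 35116 promoter windows. YTHDC1 was at 58.8% and YTHDC2 at 58%. The observed over expected CpG ratio was 1.10 in YTHDF1, 1.05 in ALKBH5, 0.836 in YTHDC1 and 1.00 in YTHDC2, beside a median of 0.558. All 4 windows held a GC box, as 42.6% of all windows did. Those of YTHDC1 and YTHDC2 each held the full cAMP response element, found in 1.65% of all windows, and that of YTHDF1 held an E-box, found in 6.34%. The CCAAT box, in YTHDC2, was in 32.0% of all windows. A search for the ETS motif CCGGAAG, found in 8.52% of all windows, gave no match in the windows of the 8 genes. The NRF1 consensus, with its ambiguous positions, had a match in the windows of YTHDF1 and ALKBH5 and in 6.28% of all windows, and the ZNF143 consensus had one in that of FTO and in 2.24% of all windows. An earlier search for a single fixed spelling of either motif had found none in the 8 genes. The 4 promoters were chosen after the expression values were seen, and the motifs after the sequences were seen, so a match is a description of letters only, and binding was not measured.

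Peaks in exons were listed for 4 of the 5 YTH readers and for none of the IGF2BP readers or erasers. Of the 10 genes, the 4 with a peak in a coding exon or an untranslated region (UTR) were YTHDF1, YTHDF2, YTHDF3 and YTHDC1, beside 42.4% of all genes tested. Each of these 4 had it in a coding exon, as 25.3% of all genes did. Intronic peaks were annotated to 5 of the 10, beside 14.9% of all genes, with no account taken of gene or intron length. All 3 IGF2BP genes had a single peak each, in an intron. Peaks but none in an exon or UTR were found in 9.95% of all genes tested. YTHDC2, FTO and ALKBH5 had no peak of any class, while 52.4% of all genes tested had one. That share varied with the deposited control value, whose scaling by gene length is not stated. It was 50.7% below 5, where YTHDC2 lay, 58.8% from 5 to 20, where FTO lay, and 33.7% from 100, where ALKBH5 lay. The peak list gives no score or enrichment to rank peaks by, and a gene without a listed peak is not shown to lack m6A. Whether the immunoprecipitations were pooled is not stated.

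**Figure D3:**
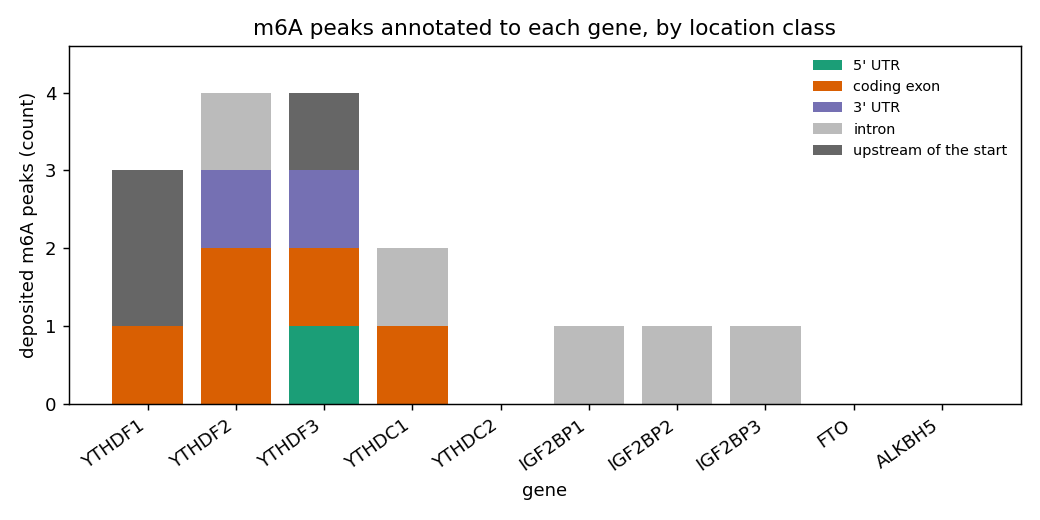
Number of deposited m6A peaks annotated to each reader and eraser, stacked by location class. YTHDF2 and YTHDF3 have 4 peaks each, the IGF2BP genes 1 intronic peak each, and YTHDC2, FTO and ALKBH5 none.

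Each YTHDF gene had a wide peak in a coding exon, beside a median width of 356 bases over all coding exon peaks. YTHDF1 had a coding exon peak of 1177 bases, centred 13215 bases from the annotated start (chr20:61833735-61834912), and 3.24% of all coding exon peaks were at least as wide. Its other peaks lay upstream of the start, centred at -642 and -1286 bases from it, farther than the 250 bases printed above, although the list and RefSeq may use different starts. YTHDF2 had coding exon peaks of 281 and 814 bases (chr1:29069090-29069371 and chr1:29069594-29070408), a 3' UTR peak of 276 bases centred 32350 bases from the start, and an intronic peak of 203 bases close to the start. YTHDF3 had a coding exon peak of 1312 bases, a width reached by 2.21% of coding exon peaks, with a 3' UTR peak of 420 bases, a 5' UTR peak of 251 bases and an upstream peak of 237 bases. A coding exon peak together with a 3' UTR peak, as in YTHDF2 and YTHDF3, was found in 5.63% of all genes tested. Of the genes with any peak, 8.24% had 4 or more. YTHDC1 had a coding exon peak of 386 bases (chr4:69202771-69203157) and an intronic one of 272 bases.

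The intronic peaks of the IGF2BP genes were 413 bases wide in IGF2BP1, 268 in IGF2BP2 and 643 in IGF2BP3, centred 17199, 168895 and 55244 bases from the annotated starts. The median width of all intronic peaks was 279 bases. The intron class belongs to the transcript the file names, and another isoform may be exonic there. By class, 8 of the 16 peaks (50%) lay in exons or UTRs, beside 67.1% of all peaks, 5 (31.3%) in introns, beside 23.5%, and 3 (18.8%) upstream, beside 7.84%. Coordinates are those of the deposited list. The processing notes name hg38, yet only 1 of the 16 peaks, that of IGF2BP3, overlapped its gene's span in GRCh38, so the build of these coordinates is not taken to be hg38.

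Genes with and without an exon or UTR peak were set beside their change. The 4 with one had a median log2 difference of 0.08 (0.13 in knockdown 1 and 0.03 in knockdown 2), and 2 were above the control in both libraries. For the 6 without one the median was 0.11 for the mean difference, 0.17 for knockdown 1 and 0.15 for knockdown 2, and 2 were above and 1 below the control in both. Over all genes tested the medians were -0.025 with such a peak and 0.015 without. Of the 5253 with such a peak, 1387 were above and 1778 below the control in both libraries. Of the 7122 without, 2082 were above and 1988 below.

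Other genes of the m6A pathway were taken in 8 lists, and no member of any list passed limma's test over all genes. The counts below stand beside 28% of all genes tested above and 30.4% below the control in both knockdown libraries, and 42.4% with an exon or UTR peak. Of the 9 writers, 3 were above and 3 below the control in both knockdown libraries. Those below include METTL3, the target of the hairpins, so that count is not independent of the design. METTL3 was the lowest relative to the control, with a mean log2 difference of -1.54. METTL14, the RNA-binding partner of METTL3, was at 5.3 in knockdown 1 and 5.77 in knockdown 2, against 6.02 in the control. CBLL1, the HAKAI subunit, was at 7.44 in knockdown 1 and 7.31 in knockdown 2, against 6.29 in the control. An exon or UTR peak was listed for 7 of the 9 writers, but not for METTL3 or VIRMA, beside 42.4% of all genes tested.

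Of 12 other proposed readers, 5 were above and 2 below the control in both libraries, with a median log2 difference of 0.14. RBMX, an hnRNP-type protein that binds RNA opened by m6A, was at 84.11 in knockdown 1 and 95.17 in knockdown 2, against 57.38 in the control. Both were above the control, with a mean log2 difference of 0.63 (SE 0.25, limma unadjusted p = 0.0472, adjusted p = 1). FXR1, a paralog of the fragile X protein, was at 73.06 in knockdown 1 and 91.09 in knockdown 2, against 107.23 in the control. FXR2 was at 14.6 in knockdown 1 and 18.45 in knockdown 2, against 13.05 in the control. An exon or UTR peak was listed for 3 of the 12, PRRC2A, EIF3A and SND1.

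The decay machinery that YTHDF2 uses was followed next. Of 11 members of the CCR4-NOT deadenylase list, 3 were above and 3 below the control in both libraries, with a median of 0.04, and 7 had an exon or UTR peak. CNOT10 was at 9.71 in knockdown 1 and 11.73 in knockdown 2, against 6.83 in the control. The CCR4-NOT-associated TNKS1BP1 was at 10.92 in knockdown 1 and 10.08 in knockdown 2, against 14.63 in the control. Of 12 genes for subunits of RNase P and RNase MRP and for the adaptor RIDA, 3 were above and 2 below in both, with a median of 0.06, and 7 had such a peak. POP7, a protein subunit of both enzymes, was at 74.67 in knockdown 1 and 78.75 in knockdown 2, against 54.4 in the control.

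Of 8 nuclear and helicase partners of the YTHDC readers, 6 were above and 0 below the control in both libraries, where 28% and 30.4% of all genes were, with a median of 0.17, and 3 had an exon or UTR peak. Of the 6, SRSF10 was only 0.0066 above it in knockdown 1 and SRSF7 0.031 in knockdown 2 on the log2 scale. Signs of list genes were not examined under the 3 other scalings. ZCCHC8, a subunit of the nuclear exosome targeting complex, was at 9.64 in knockdown 1 and 8.91 in knockdown 2, against 6.64 in the control. The mRNA export receptor NXF1 was at 18.73 in knockdown 1 and 18.46 in knockdown 2, against 14.55 in the control. The splicing factor SRSF3 was at 107.4 in knockdown 1 and 92.46 in knockdown 2, against 84.18 in the control. Of 7 proteins that act with IGF2BPs on mRNA stability, 4 were above and 1 below in both, with a median of 0.21, and 1 had such a peak. HNRNPU was at 47.72 in knockdown 1 and 48.12 in knockdown 2, against 39.95 in the control. ELAVL1, also counted among the other readers, was at 24.56 in knockdown 1 and 25.75 in knockdown 2, against 21.55 in the control. Of 8 genes for other ALKBH dioxygenases and for the m6Am methyltransferase PCIF1, 5 were above and 1 below in both, with a median of 0.11. ALKBH2, a DNA repair enzyme, was at 27.2 in knockdown 1 and 29.21 in knockdown 2, against 21.88 in the control, and 6 of these 8 genes had an exon or UTR peak, beside 42.4% of all genes tested.

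The oncofetal list was taken because IGF2BP1 and IGF2BP3 belong to the fetal program that LIN28 proteins and let-7 microRNAs control. Of its 9 tested genes, 2 were above and 2 below the control in both libraries, and their median log2 difference was -0.04 in knockdown 1, against 0.25 in knockdown 2. LIN28B and PLAGL1 reached 1 in knockdown 2 only, so they were tested through the library where they were high. Both enter these medians, so the contrast between the medians is not a result about the list. HMGA2, a chromatin protein and let-7 target, was at 16.5 in knockdown 1 and 16.96 in knockdown 2, against 14.15 in the control. Its relative HMGA1 was at 1576.22 in knockdown 1 and 1295.44 in knockdown 2, against 1622.15 in the control. The imprinted PEG10 was at 39.87 in knockdown 1 and 30.84 in knockdown 2, against 44.62 in the control. Chosen after their values were seen, LIN28B was listed at 0 in knockdown 1, 2.1 in knockdown 2 and 0 in the control. The imprinted zinc finger gene PLAGL1 was at 0.03 in knockdown 1, 5.97 in knockdown 2 and 0.03 in the control. ARID3B was at 3.45 in knockdown 1, 7.5 in knockdown 2 and 3.93 in the control. LIN28A stayed at 0.06 to 0.12 and IGF2 at 1.36 to 1.67. An exon or UTR peak was listed for 4 of the 9 tested genes, HMGA2, ARID3B, PEG10 and MYC.

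**Figure D4:**
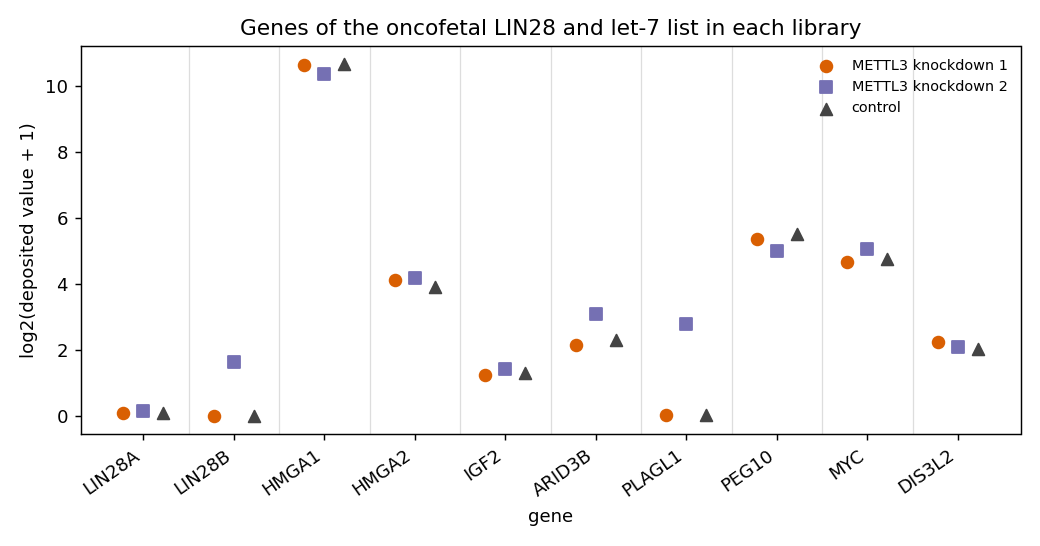
log2(deposited value + 1) of the 10 genes of the oncofetal list found in the table, 1 point per library for knockdown 1, knockdown 2 and the control. LIN28B, PLAGL1 and ARID3B have the widest steps between libraries, with knockdown 2 highest, and HMGA1 and PEG10 are lowest in knockdown 2.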

How the data were processed

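Expression was measured in 3 TE-10 libraries, 2 METTL3 knockdowns and 1 control. TopHat2, HTSeq, MACS2 and hg38 are named per the submitters' processing notes; the sources used here give no versions or settings. The deposited expression table holds a signal per gene with 2 decimals, whose unit the authors' header does not state; columns sum to 617840, 627152 and 608291, so the values are not taken as counts, and sequencing depth is unknown. Tests planned for counts were therefore replaced by limma 3.58.1 (R 4.3.3) on log2(value + 1), with a mean-variance trend and Benjamini-Hochberg adjustment over the 12375 genes that reached 1 in some library. Fold changes on this scale understate those of low genes. The deposited peak list holds positions, location classes and distances to the start as the authors gave them. Gene lists and members were chosen with earlier results of these data known. Genes named with values were all members, METTL3, and some or all of up to 3 per list. These 3 had the largest absolute mean log2 difference among those at 5 or more in every library and on the same side of the control in both knockdowns. In the oncofetal list, LIN28B, PLAGL1, ARID3B, LIN28A and IGF2 were named outside this rule. Alternatives were another pseudocount, other filters, 3 scalings, no trend, and leaving out each knockdown library. Python 3.11.15, numpy 2.4.6, pandas 2.3.3 and matplotlib 3.10.9 were used.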

Additional observations from a re-analysis of the deposited data

How the results depend on the processing

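The number of readers and erasers past the threshold, and of all genes, was 0 under all 7 alternative settings tested in limma (another pseudocount, 2 other filters, 3 scalings, no trend); at an unadjusted p under 0.05 limma took 1 of the 10 genes with a pseudocount of 0.1 and with equal column sums, and 0 in the others. The median log2 difference of the readers and erasers tested stayed between 0.05 and 0.10, and that of IGF2BP1 between 1.10 and 1.37. All 10 were tested except under the filter on a mean of at least 5, where YTHDC2 dropped out and 9 remained. Genes below the control in both knockdown libraries were 2 in place of 1 with equal column sums. Those above it in both were 3 in place of 4 with equal column sums and with the filter on a mean of at least 5. The mean difference of FTO was 0.0065 with quantile normalization in place of -0.02; the cause was not tested. Without a knockdown library, 1 library stands against 1 and no test is possible: the genes above the control numbered 6 to 7 and those below 3 in each case, because only 1 library then has to differ, and the median was 0.04 to 0.13. Differences then took the sign of the library left. Without knockdown 1, ALKBH5 was at -0.30, FTO at 0.0099, YTHDF1 at -0.32 and IGF2BP3 at 0.46, and without knockdown 2 these were 0.41, -0.053, 0.23 and -0.14. Peaks of every location class gave 16 peaks in place of 8 and 7 genes in place of 4; merging peaks under 200 bases apart, a minimum width of 200 bases and older symbols changed neither. DESeq2 was not run because the table holds no counts. No paired analysis was possible because the control is 1 library without a number. Depth is unknown, so no counting interval can be given for low genes such as YTHDC2 and IGF2BP1.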
